A study of Mus musculus with 4 samples.

Results

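The proteasome genes described here were the mouse genes whose symbols begin with Psma to Psmg and a number. In an Affymetrix array data set, 49 of the 22180 genes with a probe set of a single gene symbol matched. They comprised 15 subunits of the core particle, 3 inducible catalytic subunits of the immunoproteasome, 6 ATPases and 14 other proteins of the regulatory cap, 4 activators, and 5 regulator or assembly genes (Psmf1 and Psmg1 to Psmg4). The remaining 2, Psmc3ip and Psme3ip1, matched by name only: they are named for proteins that bind a proteasome component and are not subunits. Psma4 was outside the set because its probe sets carried a further symbol. Of the 49 genes, 46 had 1 probe set. For Psma5, Psmc2 and Psmg2 the probe set with the highest mean over all 4 arrays was used. The probe sets were thus chosen by mean signal over the 4 arrays and the genes by symbol; the difference between genotypes chose none, but the set was drawn up with results of these arrays known, so its counts are a description.

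The groups were 2 arrays of Mmp14 knockout cells (Mmp14-/-) and 2 arrays of wild-type cells (Mmp14+/+). Both were skeletal stem cells (SSCs) from mice 4 to 6 weeks old, kept for 48 h in 3D collagen gels with no other treatment named. The labels leave unsaid whether the knockout was limited to a cell type, whether animals were pooled, and whether replicates were separate animals or cultures. The p-values therefore cover the spread between these arrays, which may be technical. The study compared the genotypes to screen for transcriptional changes.

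The proteasome is the cell's main machine for degrading proteins tagged with ubiquitin. Its core is a barrel of alpha rings, which control entry, around beta rings, which hold the cutting sites. The cap recognises tagged proteins, removes the ubiquitin, and uses its ATPases to unfold them and feed them into the barrel. In bone-forming lineages the proteasome degrades regulators such as beta-catenin and Runx2. The transcription factor NFE2L1 raises many proteasome genes together when proteasome activity is limiting.

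Mmp14, the membrane-anchored collagenase gene that was deleted, measured 5.77 and 5.84 log2 in knockout arrays, against 8.77 and 8.83 in wild type (difference −2.99, SE 0.103, limma adjusted p = 0.000278, n = 2 per group). The skeletal stromal genes Prrx1 (10.2 log2 in knockout and 10.2 in wild type), Pdgfra (9.65 and 7.88) and Col1a1 (11.4 and 11.6) were bright in both genotypes, but several markers differed. Of the 13 stromal markers measured, 4 rose by limma's test (Cxcl12 by 1.81, Pdgfra by 1.77, Cd200 by 1.46 log2, and Nt5e, with 6.78 log2 in knockout and 5.68 in wild type), 1 fell (Lepr, with 5.93 log2 in knockout and 8.19 in wild type), and 8 were not called. Of 6 skeletal muscle markers measured, 3 reached the table's median signal. Pax7, a marker of muscle stem cells, rose, with 4.46 log2 in knockout and 3.15 in wild type. Acta1 and Ckm were not called, and Myod1, Myog and Myh1 were too dim to be tested. Of 12 leukocyte markers measured, 5 reached the table's median signal, and 0 of these were called. The brightest, Cd68, averaged 4.51 log2 in knockout and 4.63 in wild type. Lyz2 averaged 2.64 in knockout and 3.13 in wild type, and Coro1a, in the other direction, 2.64 and 2.27. The pan-leukocyte gene Ptprc, too dim to be tested, averaged 1.58 in knockout and 1.70 in wild type. No endothelial marker of 6 reached the median signal. The sex marker Xist measured 9.30 and 9.09 log2 in knockout, against 8.45 and 8.48 in wild type (difference 0.73, limma adjusted p = 0.0155). Y-linked Eif2s3y, the other sex marker, measured 5.19 and 5.40 in knockout, against 6.18 and 5.79 in wild type (−0.69, limma adjusted p = 0.0474). Whether the groups differed in sex make-up was not tested. The part of these marker differences in the values below was not tested either.

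Across the set, proteasome genes read slightly lower in knockout cells, and no single gene passed the test. The median difference, knockout minus wild type, was −0.16 log2, or 0.895 of the wild-type level, with quartiles of −0.24 and −0.07. Over all 12708 genes tested the median was −0.0041. In bulk arrays, fewer cells of a type and less RNA per cell cannot be told apart. The difference was below 0 for 41 of the 49 genes (83.7%), compared with 51% of all genes. Both knockout arrays lay below both wild-type arrays for 29 genes (59.2%), against a background of 24.5% of all genes, and above them for 1 gene, Psmd5, against 23.1%. Members were brighter than most genes, so the same shares are given among the 7583 genes at or above the 75th percentile of signal (4.76 log2). There, 26 of 39 members (66.7%) had both knockout arrays below both wild-type arrays, against 34.1% of genes that bright. In 1 member both knockout arrays lay above both wild-type arrays, against 29.3% of those genes. The difference was below 0 for 33 of the 39 (84.6%), against 52.7%.

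Genes were called when limma's p-value, adjusted by Benjamini and Hochberg over the 12708 genes whose mean reached 2.34 log2, was below 0.05. That filter, the median row mean of the table, kept 46 members. Psmc3ip, with a mean of 2.42 log2, lay just inside it, and Psma8 (2.16), Psmb9 (2.04) and Psmb11 (1.80) lay outside and were not tested. Of the 46, 0 were called higher and 0 lower in knockout, while 11.3% of all genes tested were called, 6.2% higher and 5.12% lower. At an unadjusted p under 0.05, 8 members (17.4%) were lower and 0 higher, against 13.5% and 14.1% of all genes. The 8 were Psmb1, Psmb2, Psmb5, Psmb6, Psmc4, Psmc5, Psmd3 and Psmg3. All 46 missed the adjusted threshold, which does not show that they were equal in the 2 genotypes. In simulated data the same fit called 2.16% of changes of 0.5 log2.

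**Figure D1:**
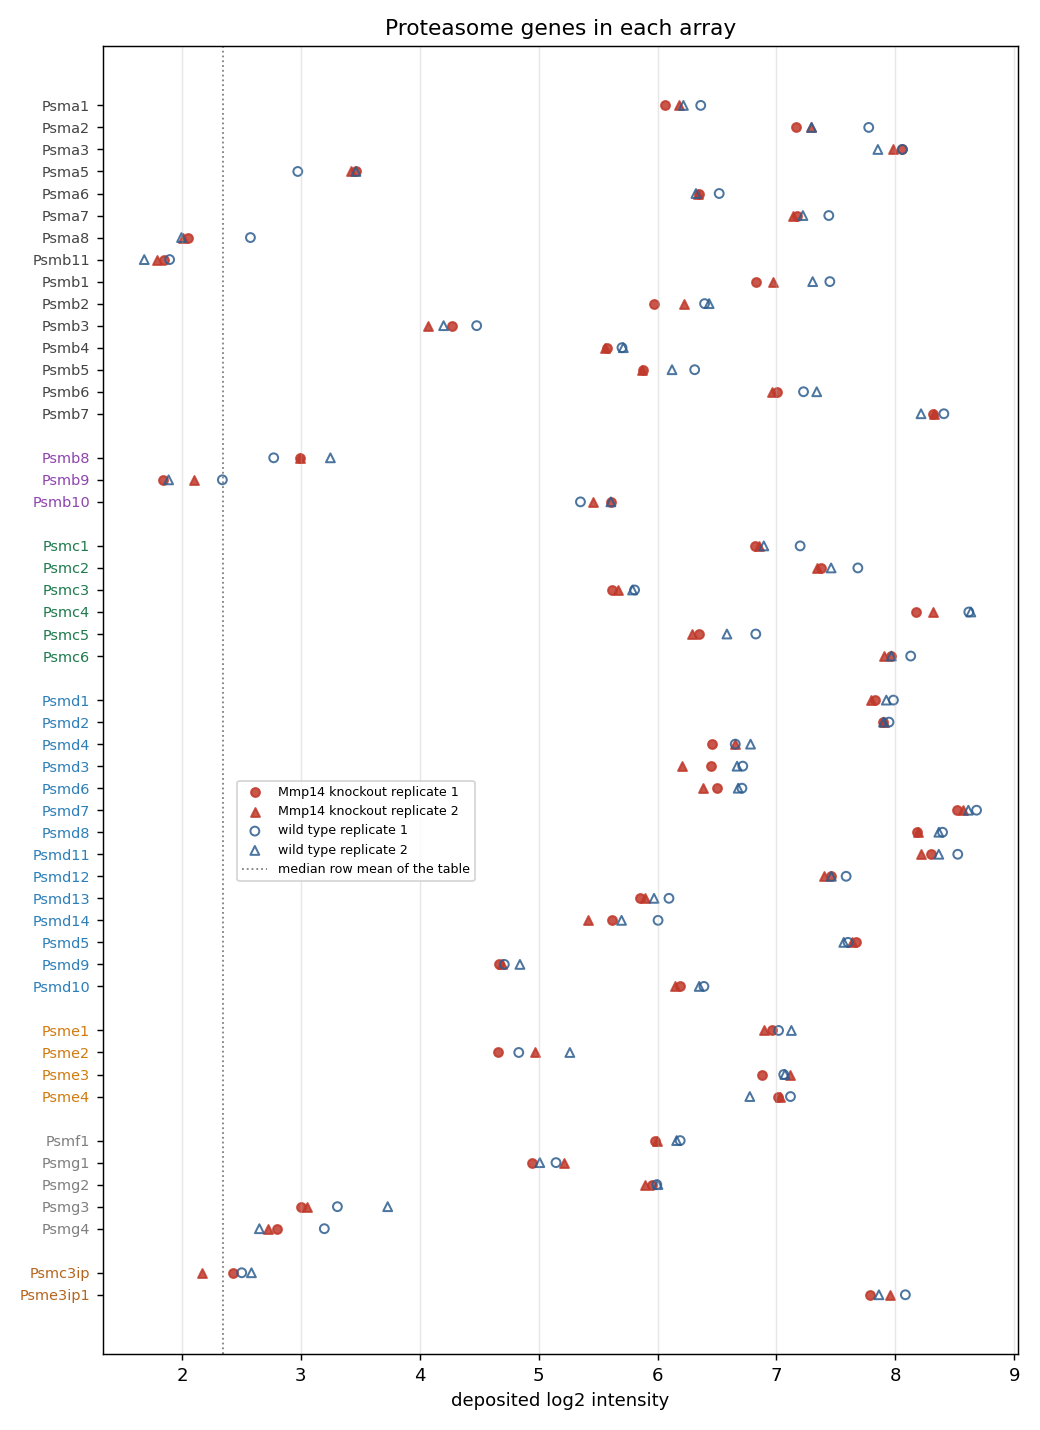
Deposited log2 intensity (x axis) of each of the 49 genes (rows, coloured by subunit group) in the 4 arrays, with filled red symbols for knockout and open blue ones for wild type. The symbols of a gene lie close together, and in 29 rows both red symbols lie left of both blue ones.

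The knockout minus wild type differences of the members lay close together. Their interquartile range was 0.17 log2. Among members at or above the 75th percentile of signal it was 0.16, against 0.34 for all genes that bright. Between replicates, those bright members had a median absolute difference of 0.058 in knockout and 0.13 in wild type, against 0.096 and 0.12 for all genes that bright. The whole range of the 49 members ran from −0.49 (Psmg3) to 0.22 (Psma5). Their level and their difference were nearly unrelated across the 49 genes, which share the same 4 arrays (Pearson r = −0.035, Spearman rho = 0.024).

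The wild-type arrays did not contribute equally. The median deviation of the 49 genes from their own 4-array mean was −0.07 and −0.08 log2 in knockout replicates 1 and 2, and 0.12 and 0.04 in wild type replicates 1 and 2. Wild type replicate 1 was the highest of the 4 arrays for 32 members, and for 30.9% of the genes at or above the 75th percentile. Knockout replicates 1 and 2 were the highest for 1 and 2 members, and for 25.6% and 19.4% of genes that bright. Without wild type replicate 1 the median difference was −0.10, with 37 of 49 genes below 0. Without wild type replicate 2 it was −0.20, with 45 below 0.

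**Figure D2:**
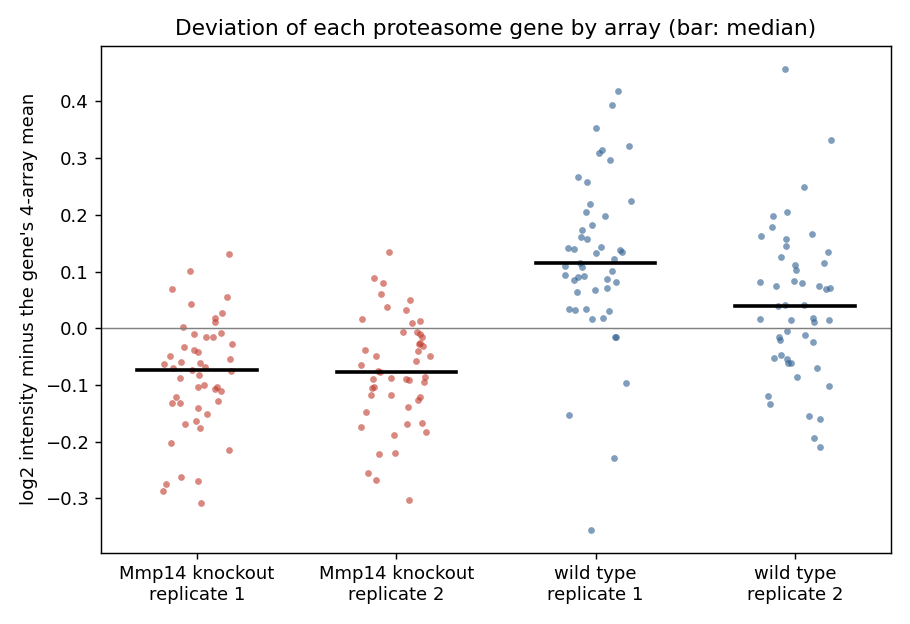
Log2 intensity of each of the 49 genes minus that gene's mean over the 4 arrays (y axis), by array, with a black bar at the median. The knockout medians lie at −0.07 and −0.08 and the wild-type medians at 0.12 and 0.04.

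The cutting sites of the core are made by Psmb5 (chymotrypsin-like activity), Psmb6 (caspase-like) and Psmb7 (trypsin-like). Psmb5 measured 5.88 and 5.87 log2 in knockout, against 6.31 and 6.12 in wild type (difference −0.34, 95% interval −0.62 to −0.06, limma adjusted p = 0.116). Psmb6 measured 7.01 and 6.96 in knockout, against 7.23 and 7.34 in wild type (−0.30, interval −0.55 to −0.04, limma adjusted p = 0.132). For both genes the knockout arrays lay below the wild-type arrays without overlap. Psmb5 was called at a filter at the 75th percentile of signal (limma adjusted p = 0.049) and in no other alternative, with adjusted p ranging from 0.049 to 0.357 over 13 of them. Psmb7 measured 8.32 and 8.33 in knockout, against 8.41 and 8.22 in wild type, so the knockout arrays lay between the wild-type ones (0.0125, interval −0.27 to 0.29).

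Interferon-inducible subunits replace these 3 in the immunoproteasome, which favours peptides for MHC class I: Psmb8 takes the place of Psmb5, Psmb9 of Psmb6 and Psmb10 of Psmb7. Psmb8, with a low mean of 3.00 log2, measured 2.99 and 2.99 in knockout, against 2.77 and 3.25 in wild type (−0.02, interval −0.44 to 0.40, limma adjusted p = 0.961). Psmb9 measured 1.84 and 2.10 in knockout, against 2.34 and 1.89 in wild type, below the median signal of the table by its mean. Psmb10 measured 5.61 and 5.46 in knockout, against 5.35 and 5.61 in wild type (0.05, interval −0.27 to 0.37, limma adjusted p = 0.847). In all 3 the genotypes overlapped and the spread between the wild-type arrays exceeded the difference. The median difference was −0.02, the value of Psmb8, and only Psmb10 was well above the filter. The difference between the inducible and constitutive subunits was not tested.

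The stretches before the transcription starts of the catalytic genes, and of the cap ATPase genes Psmc4 and Psmc5 described below, are shown to set constitutive beside interferon-inducible subunits. Each is the 250 bases before the start from RefSeq's annotation of GRCm38.p6, for those of the catalytic genes with an entry. Capitals mark the core of the antioxidant response element, TGACNNNGC, which NFE2L1 and NFE2L2 bind, found here in Psmb5 and Psmb6. Both strands were searched.
Psmb5 (chr14:54617996-54618245, - strand): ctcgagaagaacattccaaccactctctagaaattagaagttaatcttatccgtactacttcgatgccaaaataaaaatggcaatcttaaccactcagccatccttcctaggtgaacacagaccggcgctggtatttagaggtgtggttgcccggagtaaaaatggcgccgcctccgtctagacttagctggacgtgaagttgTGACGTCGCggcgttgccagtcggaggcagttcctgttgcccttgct
Psmb6 (chr11:70525107-70525356, + strand): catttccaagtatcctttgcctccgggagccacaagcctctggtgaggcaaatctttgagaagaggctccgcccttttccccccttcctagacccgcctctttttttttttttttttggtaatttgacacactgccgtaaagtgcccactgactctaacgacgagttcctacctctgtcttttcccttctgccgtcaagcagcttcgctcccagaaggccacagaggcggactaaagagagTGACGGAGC
Psmb8 (chr17:34197945-34198194, + strand): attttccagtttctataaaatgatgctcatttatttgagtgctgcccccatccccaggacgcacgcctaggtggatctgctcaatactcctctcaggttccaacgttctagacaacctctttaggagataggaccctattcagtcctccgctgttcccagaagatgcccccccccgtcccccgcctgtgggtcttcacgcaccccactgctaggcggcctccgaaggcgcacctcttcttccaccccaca
Psmb9 (chr17:34187331-34187580, - strand): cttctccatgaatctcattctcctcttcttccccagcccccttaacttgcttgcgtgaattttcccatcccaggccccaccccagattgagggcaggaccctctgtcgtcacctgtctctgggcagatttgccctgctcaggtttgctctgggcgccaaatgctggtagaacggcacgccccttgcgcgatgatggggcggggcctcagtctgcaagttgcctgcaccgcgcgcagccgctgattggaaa
Psmb10 (chr8:105938393-105938642, - strand): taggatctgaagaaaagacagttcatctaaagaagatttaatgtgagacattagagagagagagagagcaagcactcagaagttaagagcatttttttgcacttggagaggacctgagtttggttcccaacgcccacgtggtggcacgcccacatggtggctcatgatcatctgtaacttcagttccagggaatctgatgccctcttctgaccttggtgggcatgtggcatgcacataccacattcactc
Psmc4 (chr7:28050093-28050342, - strand): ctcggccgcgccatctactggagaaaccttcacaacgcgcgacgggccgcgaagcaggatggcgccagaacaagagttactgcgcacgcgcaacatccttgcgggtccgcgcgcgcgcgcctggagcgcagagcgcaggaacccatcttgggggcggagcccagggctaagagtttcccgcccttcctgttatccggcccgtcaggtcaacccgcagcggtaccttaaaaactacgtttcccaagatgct
Psmc5 (chr11:106255935-106256184, + strand): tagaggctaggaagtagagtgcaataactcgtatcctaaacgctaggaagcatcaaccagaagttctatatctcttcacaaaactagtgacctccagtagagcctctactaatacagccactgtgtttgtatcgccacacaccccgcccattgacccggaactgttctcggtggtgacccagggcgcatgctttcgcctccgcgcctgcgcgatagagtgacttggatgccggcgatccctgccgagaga
Of the 41 members with an entry, 5 held TGACNNNGC in this window (Psmb5, Psmb6, Psmc6, Psmd9 and Psmd12), which is 12.2%, against 10.1% of the 27025 promoters in the table. The CCAAT box, CCAAT, was found in 15 members (36.6%, against 34.5%). A match is a match of letters and shows no binding. Psma8, Psmb1, Psmb2, Psmb7, Psmc3, Psmd3, Psmd7 and Psmg2 had no entry.

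Among the other beta subunits, Psmb1 had the largest difference in the core and the smallest p-value of all members. It measured 6.83 and 6.97 log2 in knockout, against 7.45 and 7.30 in wild type (−0.48, SE 0.115, interval −0.76 to −0.19, limma adjusted p = 0.0528). The gap between the genotypes exceeded the distance between replicates in either. Psmb2 (−0.32), Psmb3 (−0.17) and Psmb4 (−0.14) also had values below 0, and the genotypes overlapped only for Psmb3. Psmb1 was called at the stricter filter (adjusted p = 0.0142) and with a trended, robust variance model (0.0121), as were Psmc4 and Psmc5. It was not called in the other 11 of the 13 alternatives, and its limma adjusted p ranged from 0.0121 to 0.252 over all 13.

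The alpha subunits were mixed. Psma1 (−0.17), Psma2 (−0.31) and Psma7 (−0.18) had no overlap between genotypes, Psma6 (−0.07) and Psma3 (0.06) did overlap. The separation of Psma2 was slight, with knockout replicate 2 at 7.29 and wild type replicate 2 at 7.30 log2. Without wild type replicate 1 the differences were −0.10 for Psma1, −0.066 for Psma2 and −0.068 for Psma7. Psma5 had the highest difference of all members, with 3.46 and 3.42 log2 in knockout, against 2.97 and 3.46 in wild type (0.22, interval −0.20 to 0.64, limma adjusted p = 0.469). Only wild type replicate 1 set it apart, and its second, dimmer probe set gave −0.035. The tissue-restricted Psma8, of the testis, and Psmb11, of the thymic epithelium, were at or under 2.58 log2 in every array.

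All 6 cap ATPases, which form the unfolding ring, had both knockout arrays below both wild-type arrays, as did 34.1% of genes at or above the 75th percentile of signal, with a median difference of −0.21. Psmc5 measured 6.35 and 6.29 log2 in knockout, against 6.83 and 6.58 in wild type (−0.38, interval −0.68 to −0.08, limma adjusted p = 0.105). Psmc4 measured 8.17 and 8.32 in knockout, against 8.62 and 8.63 in wild type (−0.38, interval −0.64 to −0.12, limma adjusted p = 0.0788). The wild-type values of Psmc4 were almost equal, so its difference did not turn on wild type replicate 1. Psmc6 had the smallest difference of the ring, with 7.96 and 7.90 in knockout, against 8.13 and 7.97 in wild type (−0.11), so that knockout replicate 1 and wild type replicate 2 were almost equal. Psmc1 (−0.21), Psmc2 (−0.21, and −0.26 at its second probe set) and Psmc3 (−0.16) lay between. For Psmc1, Psmc2 and Psmc6, wild type replicate 2 stood closer to the knockout arrays than to its replicate. Without wild type replicate 1 the ring's median was −0.13, and without wild type replicate 2 it was −0.35.

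In the cap's lid, which holds the enzyme that cuts ubiquitin off the substrate, 7 of 8 genes had no overlap, and all 8 differences were below 0. Among genes at or above the 75th percentile of signal these shares were 34.1% and 52.7%. Psmd3, a lid subunit, measured 6.45 and 6.21 log2 in knockout, against 6.72 and 6.67 in wild type (−0.36, interval −0.66 to −0.06, limma adjusted p = 0.12). Psmd14, the deubiquitinating enzyme itself, measured 5.62 and 5.42 in knockout, against 6.00 and 5.70 in wild type (−0.33, limma adjusted p = 0.204). Both knockout arrays of each gene were below both wild-type arrays. The others ranged from −0.25 (Psmd6) through Psmd8, Psmd11, Psmd13 and Psmd7 to −0.09 (Psmd12), for which the genotypes overlapped.

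Of the base proteins that are not ATPases, the large scaffold genes Psmd1 and Psmd2 gave −0.14 and −0.02, and the ubiquitin receptor gene Psmd4 gave −0.16. Psmd2 measured 7.90 and 7.91 log2 in knockout, against 7.95 and 7.90 in wild type. Psmd5, Psmd9 and Psmd10 carry subunit names but encode chaperones that help build the base. Psmd5 was the 1 member with both knockout arrays above both wild-type arrays, at 7.67 and 7.63 in knockout, against 7.60 and 7.57 in wild type (0.07, interval −0.18 to 0.31, limma adjusted p = 0.719). Psmd10, also known as gankyrin, gave −0.20 and Psmd9 −0.10, both without overlap.

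**Figure D3:**
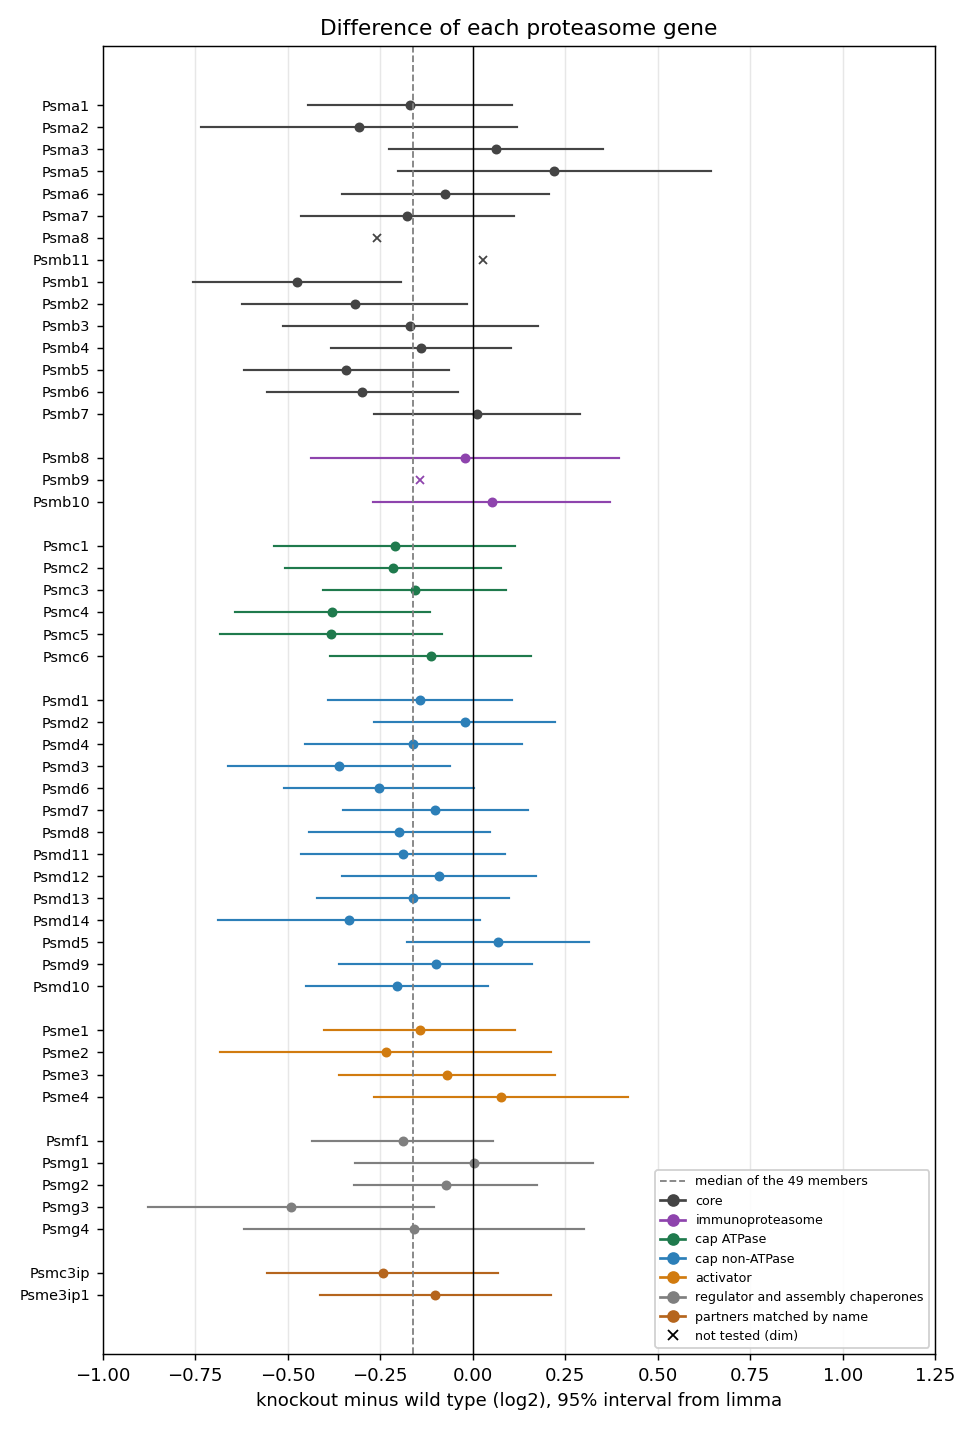
Knockout minus wild type difference (x axis, log2) of each of the 49 genes (rows, coloured by subunit group), with limma's 95% interval for the 46 tested and crosses for the 3 dim genes. Most points lie left of 0, near the dashed median at −0.16, and most intervals include 0.

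The activators open the barrel without using ATP. The interferon-inducible pair Psme1 and Psme2 gave −0.14 and −0.24, the nuclear activator gene Psme3 −0.07, and Psme4 0.08. Psme2 measured 4.66 and 4.97 log2 in knockout, against 4.83 and 5.26 in wild type, and Psme4 measured 7.01 and 7.03 in knockout, against 7.12 and 6.78 in wild type. The genotypes overlapped for Psme2, Psme3 and Psme4 but not for Psme1. On leaving out single arrays the difference ranged from −0.20 to −0.090 for Psme1 and from −0.45 to −0.021 for Psme2, which was nearest 0 without wild type replicate 2.

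Psmf1 encodes a regulator first described as a proteasome inhibitor, and Psmg1 to Psmg4 encode chaperones that assemble the alpha ring. Psmf1 measured 5.98 and 5.99 log2 in knockout, against 6.19 and 6.16 in wild type (−0.19, limma adjusted p = 0.283). Psmg3 had the lowest difference of all members, with 3.00 and 3.05 in knockout, against 3.31 and 3.73 in wild type (−0.49, interval −0.88 to −0.10, limma adjusted p = 0.107). It was dim, and its wild-type arrays varied more (SD 0.30) than its knockout arrays (SD 0.033). Without wild type replicate 1 it was called lower (−0.70, limma adjusted p = 0.0346), and its adjusted p ranged from 0.0346 to 0.354 over the 12 alternatives that tested it. Psmg1, at 4.95 and 5.21 in knockout, against 5.15 and 5.01 in wild type, differed by 0.0025. Psmg2 (−0.07) and Psmg4 (−0.16) lay between, and the dim second probe set of Psmg2 gave 0.029. Of the genes matched by name only, Psmc3ip, a meiotic recombination cofactor, gave −0.24 and Psme3ip1 −0.10.

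Genes that work with the proteasome were listed as well. Of 12 measured ubiquitin receptors, deubiquitinases and cap partners, 1 fell, 0 rose and 11 were not called, with a median of −0.10. At an unadjusted limma p under 0.05, 4 were lower (33.3%) and 0 higher, against 13.5% and 14.1% of all genes tested. The one called was Rad23b, a shuttle that brings ubiquitinated proteins to the cap, at 8.42 and 8.35 log2 in knockout, against 8.86 and 8.83 in wild type (−0.46, limma adjusted p = 0.0415). Ubqln1, another shuttle, gave −0.35, the small cap subunit gene Sem1 −0.21, and the ubiquitin ligase gene Ube3c 0.25. Pomp, the chaperone that matures the core's beta rings, measured 6.91 and 6.88 in knockout, against 7.24 and 7.35 in wild type (−0.40, limma adjusted p = 0.0619), and Akirin2, an adaptor for nuclear import of the proteasome, gave −0.03. The shift in Pomp was similar in size to those of Psmb1 and Psmc4 and likewise missed the threshold.

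Neither transcription factor of proteasome genes passed the test. Nfe2l1 measured 6.88 and 7.11 log2 in knockout, against 6.89 and 6.73 in wild type (0.18, limma adjusted p = 0.416), and Nfe2l2 measured 7.88 and 8.005 in knockout, against 7.70 and 7.62 in wild type (0.28, limma adjusted p = 0.158). Both gave differences above 0, opposite in sign to most members, and the genotypes overlapped for Nfe2l1. Of the 9 measured genes of that list, 0 were called by limma, and 1 was lower and 1 higher at an unadjusted p under 0.05. Syvn1, a ligase of the endoplasmic reticulum that marks NFE2L1 for degradation, gave −0.39 and Ngly1, which removes its sugars, 0.25. Of 8 tested oxidative stress targets of NFE2L2, 0 were called by limma, and 0 at an unadjusted p under 0.05, with Nqo1 at 0.34 and the 9 measured genes at a median of −0.06.

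The segregase p97, encoded by Vcp, pulls ubiquitinated proteins out of complexes and hands them on. Of 11 genes of p97 and its cofactors 0 were called by limma, and 1 was lower at an unadjusted p under 0.05, with a median of −0.13, Faf1 at −0.33 and Vcp at −0.08. Of the ubiquitin genes and E1 enzymes 3 were measured and 0 called by limma, also at an unadjusted p under 0.05, with Uba6 at −0.10.

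The immunoproteasome's partners in antigen presentation gave 1 call among 10 tested genes and a median of −0.13 over the 11 measured: the MHC class I gene H2-K1 fell, with 5.76 and 5.84 log2 in knockout, against 6.45 and 6.54 in wild type (−0.69, limma adjusted p = 0.0127). B2m (0.06), which pairs with it, and Tap1 (−0.16), which carries peptides to it and neighbours Psmb9, were not called. Class I genes have near-identical relatives, so the H2-K1 signal is uncertain. Of 15 tested interferon response genes, 1 rose (Ifit2, 0.86), 1 fell (Ifit3, −0.995) and 13 were not called, with a median of −0.02 over the 22 measured. The calls went both ways, and Irf1, an inducer of immunoproteasome genes, gave 0.09.

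Other large complexes were set beside the proteasome. The CCT chaperonin, a folding machine of 8 genes, had a median of 0.0017 and 0 calls by limma, also at an unadjusted p under 0.05. The COP9 signalosome, whose subunits resemble those of the proteasome lid, had a median of −0.11 over 9 genes and 0 calls by limma (2 lower at an unadjusted p under 0.05), with Cops6 at −0.33 and Cops5 at −0.32. The anaphase-promoting complex and its activators had a median of −0.06 over 14 genes, and 1 fell, the mitotic activator Cdc20 (−0.70, limma adjusted p = 0.0134). Cytosolic ribosomal protein genes had a median of −0.09 over 64 genes, with 1 of 57 tested lower (Rpl26) and 0 higher. The proteasome median was −0.16, and the difference between complexes was not tested. The share of genes with a difference below 0 was 83.7% for the proteasome, 88.9% for the COP9 signalosome, 78.6% for the anaphase-promoting complex, 73.4% for ribosomal proteins and 50% for CCT, and it was 90.9% for p97 and its cofactors and 83.3% for the cap partners.

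**Figure D4:**
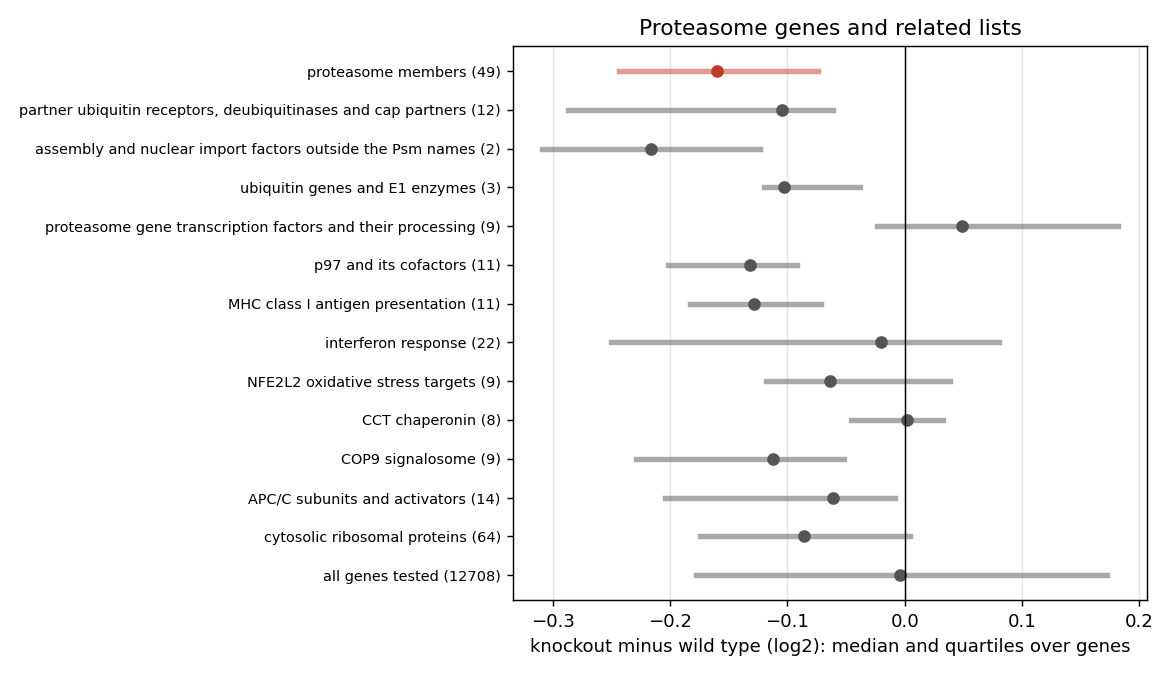
Median (point) and quartiles (bar) of the knockout minus wild type difference (x axis, log2) over the genes of each list, with the number of genes measured in brackets. The proteasome genes lie at −0.16, the CCT chaperonin at 0.0017 and all 12708 tested genes at −0.0041.

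**Figure D5:**
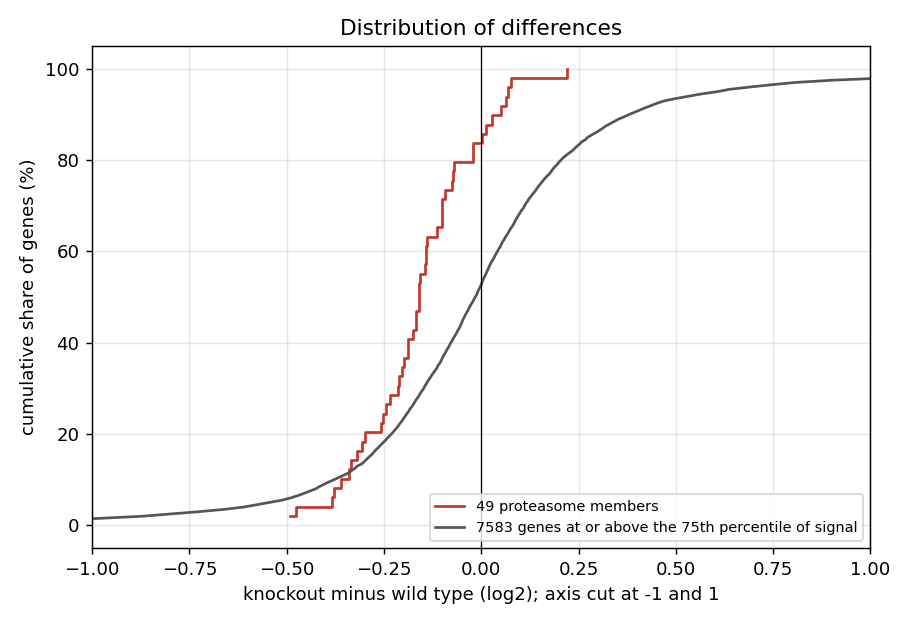
Cumulative share (y axis, percent) of the 49 proteasome genes (red) and of the 7583 genes at or above the 75th percentile of signal (grey) by knockout minus wild type difference (x axis, log2, cut at −1 and 1). The red line reaches 83.7% at 0 and the grey line 52.7%, and the red line lies within −0.49 and 0.22. The red line includes members dimmer than the grey genes. Among the 39 members at or above the 75th percentile the share below 0 was 84.6%.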

How the data were processed

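The deposited table gives log2 intensities of 41345 probe sets on 4 Affymetrix arrays. The scale was read from the values (0.43 to 12.2, array medians 2.32 to 2.37). Per the submitters' processing notes, limma and oligo were used by the authors, without version or role; the normalization is not given in the sources used here. Per the labels' protocols, cDNA was amplified from 10 ng of total RNA. Symbols came from the platform annotation: 23521 probe sets had 1 symbol, 1814 several and 16010 none listed. The number of arrays limits the precision.

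The brightest probe set stood for a gene. The genotypes were compared with limma 3.58.1 (R 4.3.3; lmFit, eBayes, two-sided, no block, 2 residual degrees of freedom), adjusted over the 12708 genes whose mean reached 2.34 log2. Same-numbered arrays deviated from their group means with a correlation of −0.04, so they were not paired. The fit was tested on 20 simulated data sets with 200 changed genes among 12708. It recovered 2.16% of changes of 0.5 log2, 75.8% of 1 log2 and 98.6% of 2 log2, and 4.43% of its calls were unchanged genes. In the data 1439 genes were called, far more than the 200 changed in the simulation. The adjusted threshold was thus less strict in the data, and the simulated shares may understate what the fit could call there. Rad23b, with a difference of −0.46, was called. Array values were given for the catalytic genes and their inducible counterparts, for the largest difference up and down in each subunit group, and for some others chosen after their values were seen; up to 4 genes were named per related list, called ones first. Members and lists were chosen with earlier results of these data known. Sequences came from RefSeq (GRCm38.p6). Alternatives covered the filter, the replicate block, normalization, variance model, probe sets and leaving out each array.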

Additional observations from a re-analysis of the deposited data

How the results depend on the processing

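No member was called higher under any of the 13 alternatives. The count called lower was 0 except at the stricter filter on dim genes (4: Psmb1, Psmb5, Psmc4 and Psmc5, of 39 members tested, where 11% of all genes were called lower), with trended robust variances (3: Psmb1, Psmc4 and Psmc5, of 46 tested, where 8.08% of all genes were called lower) and without wild type replicate 1 (1: Psmg3, adjusted p = 0.0346, with 3.61% of all genes called lower), a range of 0 to 1 on leaving out single arrays. With the replicate number as a block the count was 0, with a limma adjusted p of 0.0951 for Psmb1, and the block changed no member's call. Over all genes tested, 8.32% were called with the block, against 11.3% without it. The median of all members stayed below 0 in each alternative and ranged from −0.20 to −0.099 on leaving out single arrays, with ranges of −0.24 to −0.066 for the core, −0.35 to −0.13 for the cap ATPases, −0.19 to −0.14 for the other cap proteins, −0.15 to −0.017 for the activators, −0.20 to −0.078 for the regulator and assembly genes, and −0.077 to 0.18 for the immunoproteasome, which has no settled direction. The immunoproteasome value was 0.051 at the stricter filter, which left Psmb10 alone. The regulator and assembly median was −0.074 at that filter, which left 3 genes, −0.19 after quantile normalization and −0.18 after median centring. Leaving out 2 genes matched by name, or keeping structural subunits alone (both added after seeing the data), gave −0.16 and −0.17. Single genes changed sign: Psmb7 (−0.0090) and Psmg1 (−0.019) with centring, Psmg1 (−0.023) and Psmd2 (0.00098) with quantile normalization, and on leaving out single arrays Psmb7 (−0.084 to 0.11), Psmb8 (−0.26 to 0.22), Psmb9 (−0.37 to 0.085), Psmb10 (−0.077 to 0.18), Psma5 (−0.024 to 0.47), Psme4 (−0.095 to 0.25), Psmg1 (−0.13 to 0.14), Psma3 (−0.040 to 0.17), Psma6 (−0.17 to 0.024), Psma8 (−0.55 to 0.032), Psmb11 (−0.079 to 0.13), Psmd2 (−0.045 to 0.00094), Psme3 (−0.19 to 0.046), Psmg4 (−0.43 to 0.11) and Psme3ip1 (−0.21 to 0.010). The cause of these changes was not tested. Having 2 arrays per group limits the precision.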
